A study of Mus musculus with 7 samples.

Results

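At day 1 after caerulein, pancreatic epithelium had a different map of open chromatin from untreated epithelium. At day 1, 86230 of 164684 accessible regions overlapped no untreated region by 1 bp and are called gained, which is 52.4% of the day 1 list. Of 140286 untreated regions, 52526, or 37.4%, overlapped no day 1 region and are called lost. Genes of matrix and mesenchymal cells, such as Tnc, Col5a1 and Fbn1, gained 86, 67 and 77 regions. Genes of the acinar secretory cell, such as Gp2, Cel and Cpb1, lost all of their 21, 9 and 10 untreated regions. Regulators such as Casz1 and Prdm16 lost 66 of 91 and 80 of 107. Single genes held few of all changes: the 100 leading genes held 8.26% of linked gained and 8.23% of linked lost regions. The comparison used the regions of both lists on chromosomes 1 to 19 and X, 304970 of the 580456 regions in the 4 lists read here. Each region was linked through its summit to the nearest protein-coding gene within 50 kb. The territory of a gene is the stretch of genome that is nearest to it in this way.

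The assay was ATAC-seq, where Tn5 transposase cuts accessible DNA and attaches sequencing adapters to it. The untreated and day 1 groups came from pancreata of wild-type C57BL/6J mice, which were dissociated before the epithelial cells were purified. The series has 7 samples. Days 7 and 28 after caerulein served here to follow the changed regions, and the 3 samples of DCLK1-positive cells from Dclk1-DTR-ZsGreen mice were not analysed here. All groups are labelled as primary pancreatic epithelial cells and were processed fresh, from at least 50000 cells each. The sources used here give neither the age nor the number of mice behind a library, nor any pooling. With 1 library per group, every difference below compares libraries, has no replicate check and carries no p-value.

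Caerulein is an analogue of cholecystokinin, the gut hormone that makes acinar cells release digestive enzymes. Excess stimulation activates those enzymes inside the cell and provokes a transient acute pancreatitis, in which acinar cells turn down their enzyme programme and take on features of duct and progenitor cells. Many accessible regions are promoters and enhancers, where transcription factors displace nucleosomes. Gain or loss of a region is a readout of DNA accessibility and not of transcript levels.

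The libraries were not equally enriched. Depth was similar, with background pileups, as recovered from the deposited values, of 5.07 untreated and 5.35 at day 1. Regions present in both lists had a median fold enrichment, less 1, of 4.93 untreated and 10.97 at day 1, a ratio of 2.23. Fold enrichment is the authors' ratio of pileup to background at the summit. It ranks regions within a list, and where a place is followed through several lists its folds stand side by side as values and are not compared. When day 1 regions had to reach a fold of 4.27, so that both libraries were held to an equal enrichment, 46643 regions remained gained and 63089 were lost. The floor removes day 1 regions alone and so lowers gains and raises losses, and the balance of gained and lost regions turned. Values under this common enrichment floor are given below for the leading genes, for list totals and for some families. Counts of single list and family members are mostly given without it: of 248 list genes with at least 10 gained regions, 205 had over 1.5 times fewer under the floor, and of 495 with more gained than lost regions, 124 turned.

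Marker genes were read first, since the label names an epithelial preparation. The 13 epithelial markers had 199 regions untreated and 91 at day 1, of which 13 were gained, while 139 of the 199, or 69.8%, had been lost. Losses exceeded gains at 12 of the 13, among them the E-cadherin gene Cdh1 (41 regions untreated, 13 at day 1), Grhl2 (31 and 12) and Epcam (19 and 7). None of the 13 was without a day 1 region. The 14 acinar markers had 192 regions untreated, 58 at day 1, 134 at day 7 and 205 at day 28, with losses ahead of gains at all 14, and Cpb1, Cel and Amy2a5 had no region at day 1. Epithelial and acinar marker chromatin was thus present in both lists and smaller in the day 1 list.

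Markers of fibroblasts went the other way. Their 14 genes had 146 regions untreated, 271 at day 1, 213 at day 7 and 169 at day 28. Gained regions made up 181 of those at day 1, against 11 untreated regions lost. Col1a2 had 14 regions untreated and 35 at day 1, Prrx1 10 and 30, Pdpn 9 and 29, and Dcn, the decorin gene, 4 and 23. The only marker of this list at 0 in untreated cells was Lum, with 5 at day 1, so fibroblast marker chromatin was in both lists. Gli1 had more losses than gains. Under the common enrichment floor the fibroblast list still had 109 gained and 18 lost regions, and the acinar list 4 and 168.

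Markers of leukocytes and other cells followed. Macrophage and monocyte markers had 34 regions untreated and 30 at day 1, with Adgre1, Lyz2 and Ccr2 at 0 in both, and 10 of their 17 gained regions lay at Csf1r. Neutrophil markers had 6 and 7, and T and NK cell markers 37 and 56, of which 33 were gained and 9 of the 37 lost, or 19 and 11 under the floor. Among these T and NK cell genes Cd2 had 6 regions untreated and 14 at day 1, Gata3 16 and 24, and Il7r 0 and 5, while Cd3e, Cd3d, Cd8a and Nkg7 were at 0 in both. Of the 97 gained regions of the B cell list 83 lay at Ebf1, a gene that mesenchymal cells also use, and the B cell genes Cd79b and Ms4a1 were at 0 in both. The mesothelial list gained 42 regions, of which 33 were at Wt1, and its further gains were 5 at Upk3b, 3 at Upk1b and 1 at Msln. The endothelial list had 160 regions untreated and 142 at day 1. In such bulk libraries fewer cells of a type and less accessibility per cell cannot be told apart, and the part of the fibroblast and acinar marker shifts in the counts below was not tested.

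The promoters of 8 genes, picked by name and not by a rule, are printed here as examples of promoters that opened or closed. They are referred to below. Each is the 250 bases before the annotated start, read 5′ to 3′ on the strand of the gene from RefSeq, build GRCm38.p6. Capitals mark matches on either strand to TGANTCA, the letters that AP-1 factors prefer, or to CAGCTG, an E-box that PTF1-type factors can bind. In the full window, which also holds the 50 bases after the start, TGANTCA occurred in 7.04% of all 21044 promoters of the table and CAGCTG in 15.7%; no position can match both. A match is a description of letters and not a binding site.

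Among promoters without an untreated peak and with one at day 1, Mmp3, the stromelysin gene, spans chr9:7445572-7445821 on the plus strand and Mmp10, a related protease, chr9:7502092-7502341 on the plus strand. Olr1, a scavenger receptor, spans chr6:129507166-129507415 on the minus strand, and Runx2, a RUNX factor of bone and mesenchyme, chr17:44814628-44814877 on the minus strand.

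Mmp3: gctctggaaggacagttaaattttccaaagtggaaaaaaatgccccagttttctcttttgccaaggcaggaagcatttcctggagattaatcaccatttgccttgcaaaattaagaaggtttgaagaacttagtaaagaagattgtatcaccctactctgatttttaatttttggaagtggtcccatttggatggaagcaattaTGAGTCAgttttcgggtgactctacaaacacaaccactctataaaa
Mmp10: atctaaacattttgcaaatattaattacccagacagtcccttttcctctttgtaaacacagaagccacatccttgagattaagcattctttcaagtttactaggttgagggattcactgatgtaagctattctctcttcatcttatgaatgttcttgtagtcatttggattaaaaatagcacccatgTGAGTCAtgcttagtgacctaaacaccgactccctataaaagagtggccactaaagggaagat
Olr1: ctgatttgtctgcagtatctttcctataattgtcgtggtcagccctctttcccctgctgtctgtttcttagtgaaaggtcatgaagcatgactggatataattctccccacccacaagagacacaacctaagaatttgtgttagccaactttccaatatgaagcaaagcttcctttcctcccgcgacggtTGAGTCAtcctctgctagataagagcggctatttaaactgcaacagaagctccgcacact
Runx2: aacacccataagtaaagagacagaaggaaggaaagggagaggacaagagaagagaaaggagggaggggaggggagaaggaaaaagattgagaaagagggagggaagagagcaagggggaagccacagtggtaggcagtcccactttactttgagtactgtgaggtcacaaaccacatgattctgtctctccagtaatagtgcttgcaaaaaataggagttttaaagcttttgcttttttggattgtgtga

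Among promoters with an untreated peak and none at day 1, Reg1, a regenerating protein of acinar cells, spans chr6:78425733-78425982 on the plus strand and Cel, the carboxyl ester lipase gene, chr2:28563404-28563653 on the minus strand. Ctrl, a chymotrypsin-like protease, spans chr8:105933863-105934112 on the minus strand, and Gp2, the major membrane protein of zymogen granules, chr7:119459273-119459522 on the minus strand.

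Reg1: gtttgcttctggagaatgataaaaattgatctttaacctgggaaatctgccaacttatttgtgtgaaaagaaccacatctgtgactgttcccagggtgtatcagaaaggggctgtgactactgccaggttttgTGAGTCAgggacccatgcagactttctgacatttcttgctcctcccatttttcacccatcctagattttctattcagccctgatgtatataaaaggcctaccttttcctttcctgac
Cel: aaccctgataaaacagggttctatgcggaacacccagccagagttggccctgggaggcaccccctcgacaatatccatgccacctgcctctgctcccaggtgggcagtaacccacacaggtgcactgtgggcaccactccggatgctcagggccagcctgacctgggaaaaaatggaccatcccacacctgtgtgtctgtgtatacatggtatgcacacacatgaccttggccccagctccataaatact
Ctrl: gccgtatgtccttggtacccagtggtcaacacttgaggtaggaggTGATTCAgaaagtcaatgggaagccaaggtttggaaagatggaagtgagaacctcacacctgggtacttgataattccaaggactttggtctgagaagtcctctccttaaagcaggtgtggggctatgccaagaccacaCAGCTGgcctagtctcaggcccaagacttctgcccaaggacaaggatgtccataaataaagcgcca
Gp2: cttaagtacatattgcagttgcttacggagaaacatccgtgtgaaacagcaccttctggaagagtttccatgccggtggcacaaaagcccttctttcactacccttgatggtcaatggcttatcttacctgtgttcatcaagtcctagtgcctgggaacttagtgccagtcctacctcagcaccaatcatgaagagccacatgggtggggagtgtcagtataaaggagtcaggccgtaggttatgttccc

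The AP-1 letters read TGAGTCA in Mmp3, Mmp10, Olr1 and Reg1, with the first base 46, 63, 60 and 117 bases before the start. In Ctrl the match reads TGATTCA, 205 bases before the start, and the CAGCTG match begins 66 bases before it. Of the sequences shown, 3 of the 4 gained promoters and 2 of the 4 lost ones therefore carry the AP-1 letters, and Runx2, Cel and Gp2 carry neither motif in these windows. These picked examples do not stand for their classes. In the full window the AP-1 letters were in 15.9% of all gained and 7.78% of all lost promoters.

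Gained and lost regions differed from shared ones in width, strength and place. Gained regions had a median width of 282 bp and a median fold of 4.57, against 623 bp and 11.97 for the shared regions of the day 1 list. Lost regions had a median width of 219 bp and a median fold of 3.95, against 386 bp and 5.93 for the shared regions of the untreated list. The changed regions were thus narrower and weaker than the shared ones of their own list. The overlap rule itself favours this order, since a wide or strong region is more likely to meet a region of the other list. The part of the rule in these differences was not tested.

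Changed regions also lay away from gene ends. Summits within 1 kb of an annotated gene start or end made up 5.00% of gained and 6.98% of lost regions, against 19.8% and 19.5% of the shared ones. A gained summit lay inside a gene in 54.4% of cases (exact binomial 95% interval 54.1 to 54.7), a lost one in 61.3% (60.9 to 61.7). No protein-coding gene lay within 50 kb of 18.1% of gained regions (17.8 to 18.3) and of 11.02% of lost ones (10.7 to 11.3). These intervals cover counting error only. Shared regions lay inside a gene in 59.6% of cases in the day 1 list and 59.3% in the untreated list. They had no gene within 50 kb in 9.49% and 9.58%. Most regions of every kind thus lay inside gene bodies, gained ones less often than shared ones and lost ones slightly more often. Gained regions were more often far from any gene than lost or shared ones.

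The annotation holds 21627 protein-coding genes, and 17422 of them had a region in the untreated or the day 1 list. A region was gained at 12671 genes and lost at 11166, and 8438 genes had both kinds. Gains alone were found at 4233 genes, losses alone at 2728, and 2023 genes had regions of which none was gained or lost. The median gene had 2 gained regions and 1 lost. Gains outnumbered losses at 8526 genes, 48.9% of those with a region, and losses outnumbered gains at 5581, or 32%; under the common enrichment floor the numbers were 4940 and 8519.

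The changes were spread over many genes. The 100 genes with most gained regions held 8.26% of the gained regions linked to a gene, and the 100 with most lost regions held 8.23% of the lost ones. The 2 sets shared 6 genes. Their median territories were 421 kb and 255 kb, against 49.1 kb for all genes with a region, so long genes are favoured by such counts. At least 10 regions were gained with none lost at 248 genes, and at least 10 were lost with none gained at 82.

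**Figure D1:**
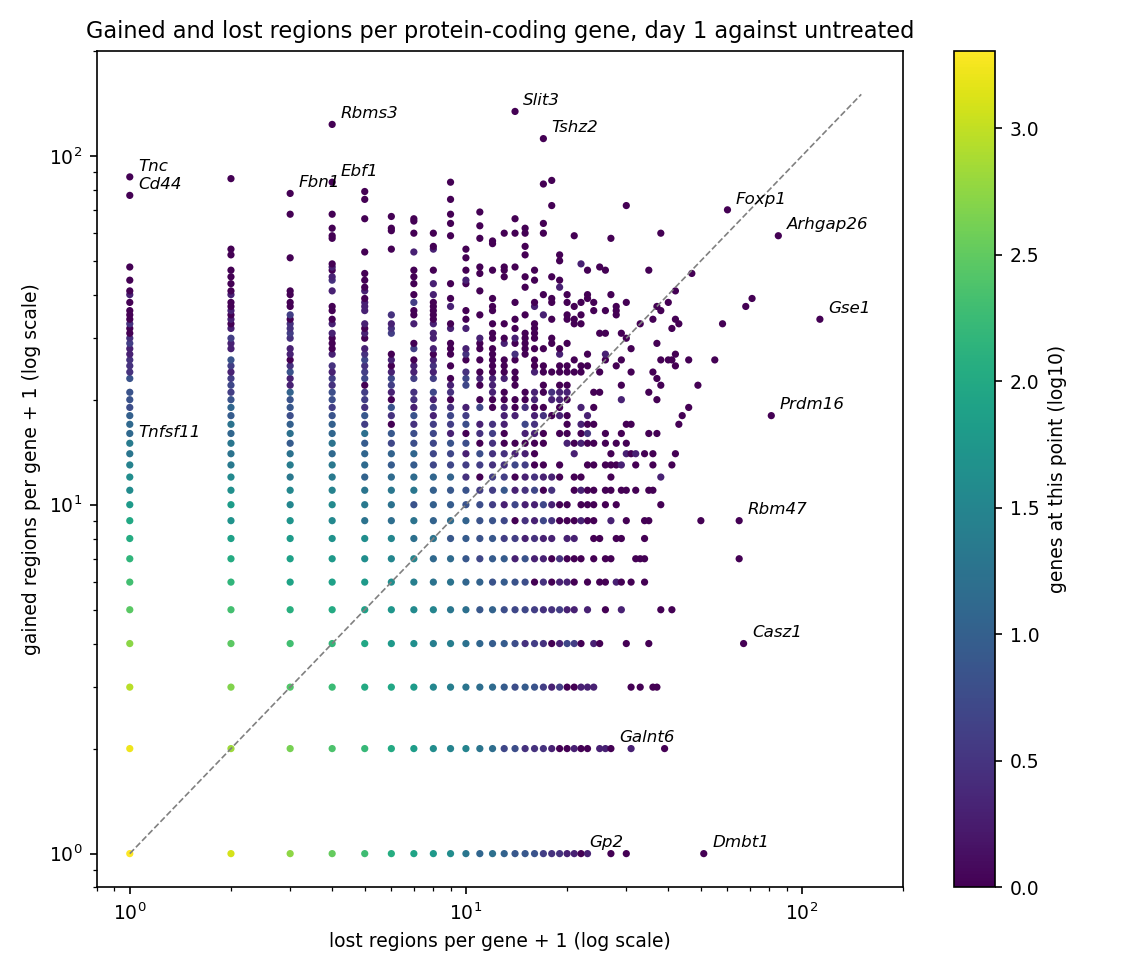
Lost regions (horizontal axis) against gained regions (vertical axis) per gene territory for the genes with a region, as counts plus 1 on log axes, with colour for the number of genes at a point, a dashed line where both are equal, and selected genes named. Slit3 is highest with 133 gained regions, Gse1 lies farthest right with 112 lost, and Foxp1 has 69 gained and 59 lost.

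The gene with most gained regions was Slit3, a secreted guidance ligand for ROBO receptors. It had 72 regions untreated, 174 at day 1, 107 at day 7 and 75 at day 28. Of the day 1 regions 133 were gained, 127 of them inside the gene span, and 69 remained gained under the common enrichment floor. Rbms3, an RNA-binding protein gene, had 48, 164, 102 and 63 regions in the same order, with 122 gained and 3 lost, and 70 gained under the floor. Tshz2, a zinc finger factor, had 89, 171, 105 and 102, with 111 gained and 51 under the floor. In each of these genes day 1 was the highest of the 4 lists.

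Tnc stood out for the share that was new. It encodes tenascin C, a matricellular protein of wounds and tumour stroma, and had 10 regions untreated, 94 at day 1, 23 at day 7 and 12 at day 28. Of the 94, 86 were gained and none of the 10 was lost, and 55 were gained under the floor. Many of the day 1 regions lay close together in the gene body. For example, 1 ended 87539 bases from the start and the next began at 87542. These numbers therefore count peaks and not separate regulatory elements. Only 11 of the 86 overlapped a day 7 region and 3 a day 28 region, so nearly all of this gain was seen at day 1 alone. Fbn1, which encodes the microfibril protein fibrillin 1, had 33 regions untreated and 106 at day 1, with 77 gained and 32 under the floor.

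Cd44, the hyaluronan receptor gene, had 17 regions untreated, 89 at day 1, 40 at day 7 and 20 at day 28. Gains numbered 76, with 56 inside the gene, none lost and 29 under the floor. Nfkb1, which encodes the p50 subunit of NF-kB, had 36, 88, 44 and 36 regions, with 68 gained and 28 under the floor. Bmper, a secreted BMP-binding protein, had 16, 79, 41 and 24, with 67 gained and 38 under the floor. Day 28 counts at these 3 genes were within 8 regions of the untreated ones.

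The other genes among the 20 with most gained regions were Celf2 with 85, Fndc3b with 84, Arhgap24 and Ebf1 with 83 each, Rora with 82, Mast4 with 78, Creb5 and Dlc1 with 74 each, Nfia and Wwox with 71 each, Foxp1 with 69 and Chst11 with 67. Under the floor Ebf1 had 58 and Creb5 50, and the other 10 had between 28 and 52. Fndc3b then had 28 gained and 28 lost regions. Ebf1, a factor of B cells and of mesenchymal cells, went from 38 to 113 regions.

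Gains packed densely in short territories were also found. Per 100 kb of territory the highest were Usp35 with 69.2 gained regions, Hoxc6 with 65.9 and Itga5 with 61.3, among genes with at least 10 gained. Itga5 encodes the integrin subunit of the fibronectin receptor and had 19 regions untreated, 32 at day 1, 34 at day 7 and 23 at day 28. Its 26 gained regions, with none lost, came to 16 when both lists were limited to a −log10 q of 5 and to 7 under the floor. Bgn, the biglycan gene, gained 15 regions, or 53.5 per 100 kb, and 9 under the floor. Mapk8ip1 (58.3), Cd44 (50.4), Lsmem1 (47.9), Napa (46.2), Tnc (46.1) and Crispld2 (44.6) completed the 10. Under the floor Usp35 had 4 gained regions, Hoxc6 7, Crispld2 8, Lsmem1 13, and Mapk8ip1 and Napa 2 each.

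Among genes with no untreated region, 862 had day 1 regions, and 60 of them had at least 5. Tnfsf11, which encodes the osteoclast-activating cytokine RANKL, had 0 regions untreated, 14 at day 1, 1 at day 7 and 0 at day 28. Its promoter was among those gained. Bend6 also had 14, Pabpc2 13, Gabrb2 12, Adam23 11, and Cacng6 10. Il19, an interleukin of the IL-10 family, Phex and Serpinb9b had 9 each. The 13 regions of Pabpc2 all lay more than 10 kb from the gene. Under the floor Tnfsf11 had 7 gained regions, Bend6 9, Gabrb2 7, Cacng6 5 and Il19 4.

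The gene with most lost regions was Gse1, a nuclear protein gene. It had 197 regions untreated, 110 at day 1, 116 at day 7 and 147 at day 28, with 112 lost, 110 of them inside the gene. Prdm16, a zinc finger regulator of cell identity, had 107, 49, 80 and 88, with 80 lost. Casz1, another zinc finger factor, had 91, 34, 65 and 68, with 66 lost and 3 gained. Rbm47, an RNA-editing cofactor of gut epithelium, had 88, 34, 52 and 74, with 64 lost. At these 4 genes day 1 was the lowest list, and day 28 remained below untreated.

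Arid1b, a subunit of the BAF chromatin remodeller, had 139, 100, 91 and 144 regions with 67 lost, and Rap1gap2 had 95, 37, 57 and 93 with 64 lost. The others of the 20 were Arhgap26 with 84 lost, Prkce 70, Zmiz1 57, Nav2 54, Dmbt1 50, Sipa1l3 49, Shroom3 48, Foxn3 46, Farp1 and Mecom 45 each, Ssbp3 43, and Mtss1 and Rere 42 each. Dmbt1, a secreted scavenger protein of epithelia, differed in kind. It had 53 regions untreated, 3 at day 1, 20 at day 7 and 50 at day 28, with 50 lost and none gained, and 38 of the 50 were seen again at day 28.

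Every untreated region was lost at 1067 genes, 82 of which had at least 5, or 1.03% of the 7943 genes with that many. The number of such genes was 145 under the floor. Gp2, shown above, went from 21 regions untreated to 0 at day 1, 2 at day 7 and 25 at day 28. Of the amylase genes, Amy2b and Amy1 had 15 and 12 untreated regions, 0 at day 1, 1 and 2 at day 7, and 11 and 13 at day 28, and Cpb1, the carboxypeptidase B gene, had 10, 0, 3 and 17. These 4 genes thus had no region at day 1 and many at day 28. Amylase genes are near-identical copies, so reads could be split between them.

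Fstl4 with 14, B3galt5, Kcnip4 and Zg16 with 12 each, and Bin2 and Ovol1 with 10 each also lost every untreated region. Of these, Bin2 had no day 1 region, B3galt5 had 1, and Fstl4, Kcnip4, Zg16 and Ovol1 had 2 each. Zg16 encodes a zymogen granule protein, and Ovol1 a zinc finger factor of epithelia. Of genes with at least 15 untreated regions, Galnt6, a mucin-type glycosyltransferase, lost 26 of 27 and Pnliprp1, a lipase-related protein, 22 of 23, with 23 regions at Pnliprp1 at day 28. Wars, the tryptophan tRNA ligase gene, lost 16 of 17, Cela3b, an elastase, and Cytip 15 of 16 each, Trpm8 22 of 24 and Ivns1abp 20 of 22.

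Some large genes gained and lost at once. Foxp1, a forkhead factor, had 110 regions untreated, 120 at day 1, 102 at day 7 and 120 at day 28, with 69 gained and 59 lost, or 39 and 65 under the floor. Arhgap26 had 58 and 84, Pde4d 59 and 37, Foxn3 45 and 46, Maml3 40 and 41, Prkce 38 and 70, Hivep3 37 and 39, Arid1b and Snd1 36 gained with 67 and 36 lost, and Ablim1 35 and 37. Under the floor the gained counts of these 10 genes were between 12 and 39 and the lost counts between 43 and 99. The near-constant total at Foxp1 therefore stood beside over 50 regions called gained and over 50 called lost. Under the floor only its losses passed 50.

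Runs of neighbouring changed regions were then listed by length. The longest run of consecutive gained day 1 regions, with gaps of at most 20 kb, held 40 regions over 140 kb, of which 35 were at Col5a1, the gene of a fibrillar collagen chain, and 5 at Fcnb. It spanned chromosome 2, 27957364 to 28097801, and 12 of the 40 were seen at day 7 and 1 at day 28. Tnc held runs of 32 regions over 36.8 kb and 29 over 31.5 kb, with 1 region of each seen at day 7 and 0 at day 28. Some neighbours in the Tnc runs lay a few bases apart, so run lengths count peaks and not separate elements. Cd44 had a run of 29 over 43.9 kb, Nfkb1 of 23 over 31.3 kb, Pip4k2a of 21, and Nr4a3, Rad23b, Tuba3b and Bmper of 20 each. All 10 runs were mostly absent from the day 28 list, which held at most 2 regions of each. Median day 1 folds were 3.78 in the Col5a1 run, 3.62 at Cd44, 3.94 at Nfkb1 and 3.86 at Nr4a3. These medians lie below the 4.27 of the common enrichment floor, so many regions of these runs would not pass it. Medians of the other gained runs were above it, with 5.12 and 5.04 at Tnc and 4.73 at Pip4k2a. Rad23b had 6.07, Tuba3b 5.44 and Bmper 6.78. Run lengths under the floor are not given here.

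Runs of lost regions returned more often. The longest held 28 regions over 65.3 kb in the cluster of tissue kallikrein genes on chromosome 7, at Gm36864, Klk1b5, Klk1b24, Klk1b4, Klk1b3 and Klk1, and 9 of them were seen at day 7 and 23 at day 28. The next held 27 regions at Gp2, Umod and Pdilt, of which 2 were seen at day 7 and 22 at day 28. Dmbt1 (26 regions), Tent5c (25), Prdm16 (25), Cbfa2t3 (24), Sel1l (22), Galnt6 (22) and Zg16 (21) followed, with between 14 and 18 regions of each seen at day 28. A run of 23 at chromosome 9, 3000006 to 3038129, had no gene within 50 kb and no region seen at day 7 or 28. The kallikrein genes are close copies of one another, and which copy a read came from is uncertain.

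**Figure D2:**
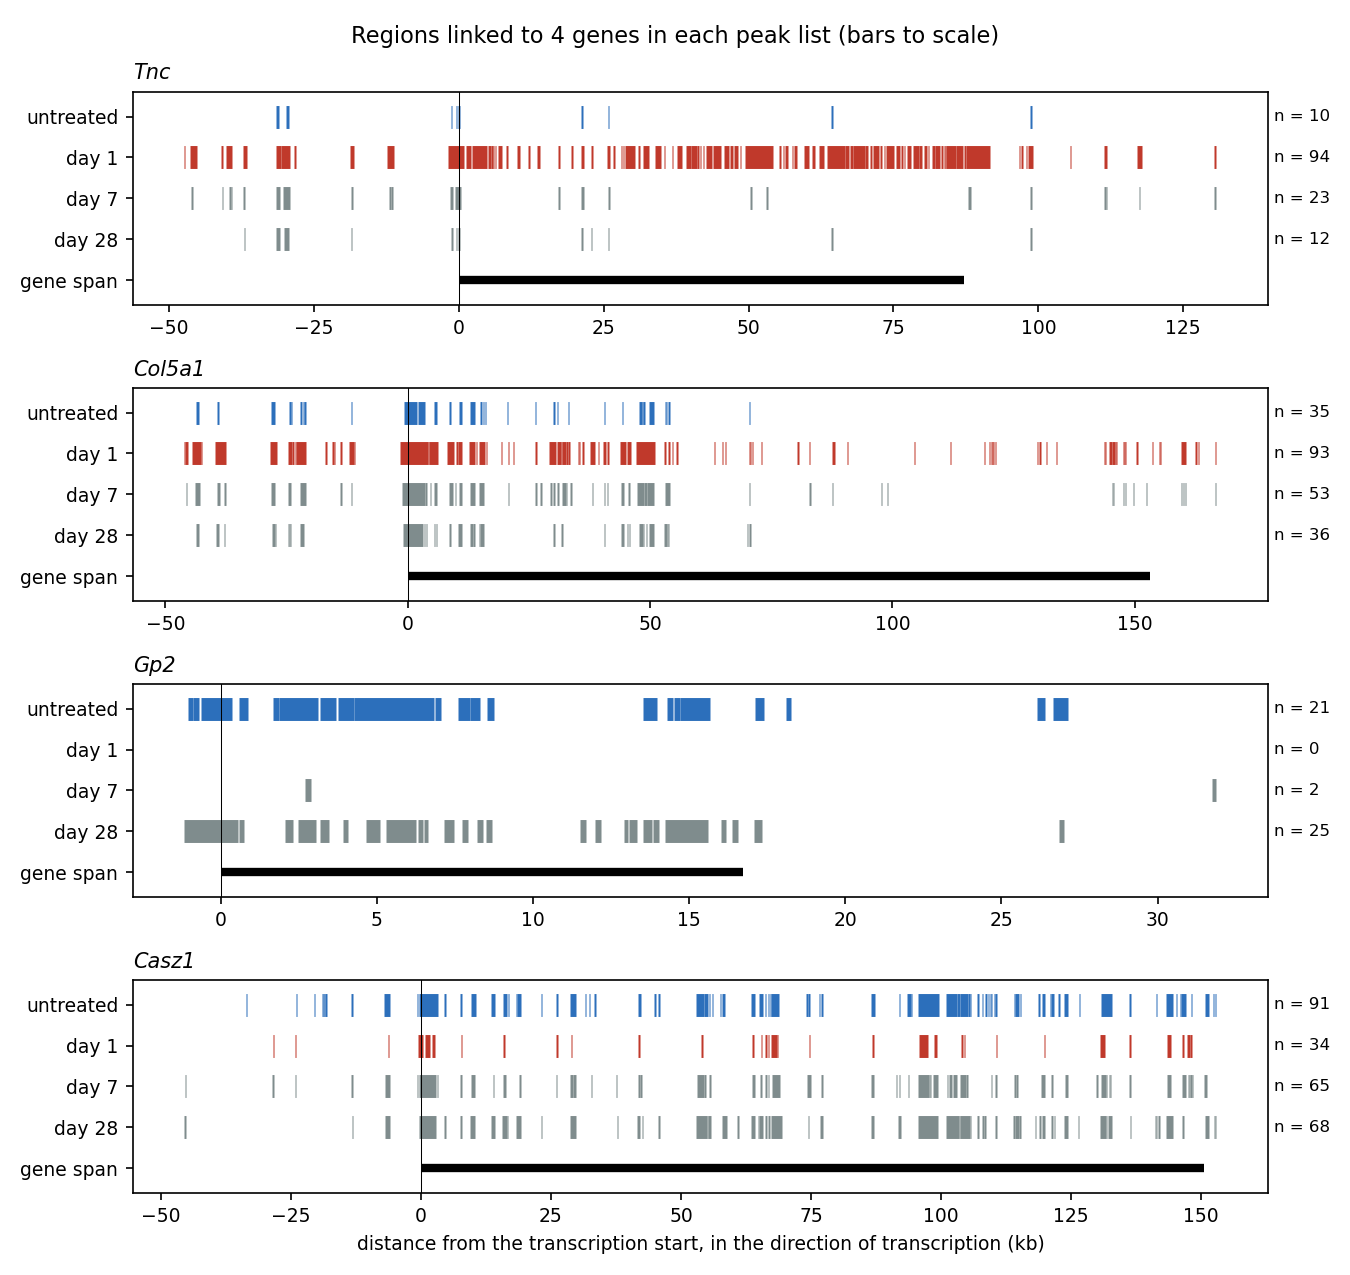
Regions along 4 genes in the untreated, day 1, day 7 and day 28 lists, drawn as bars to scale by distance from the transcription start in kb, with the gene span as a black bar. Tnc has 10, 94, 23 and 12 regions, Col5a1 35, 93, 53 and 36, Gp2 21, 0, 2 and 25, and Casz1 91, 34, 65 and 68.

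The strongest changed regions were ordered by fold within their own list. The 20 strongest gained regions had a fold of 64.3 to 81.3, and all 20 were seen at day 7 and 13 at day 28. Beyond the first 10 they included regions at Camsap2, Tmem178b, Col4a1 (67.0), Ercc3, Ifnar2 (66.5), Sec24b, Mchr1, Mef2a and Itpr2. Col4a1 encodes a basement membrane collagen and Ifnar2 a chain of the type I interferon receptor. The 20 strongest lost regions had a fold of 52.4 to 74.97 and were all seen at days 7 and 28. The later 10 of these lay at Sel1l (56.7), Slc25a25, Mgll (55.03), Msi1, Kng2, Rims1, Lifr (53.4), Fam25c, LOC115488529 and Ppara (52.4). The strong lost regions were thus all open again at day 7, and the strong gained ones were still open there.

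Gene lists were then read by role, with shares set against all regions linked to a gene, 49.9% of which were gained at day 1 and 37.1% of which were lost. Of 25 lists, 12 had a gained share above the first value and 5 a lost share above the second, or 8 when both lists were limited to a −log10 q of 5. Under the floor the gained counts of lists were lower throughout, and totals are repeated below for lists that kept more gained than lost regions. Shares of the lists are descriptions, since long genes dominate some of them.

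**Figure D3:**
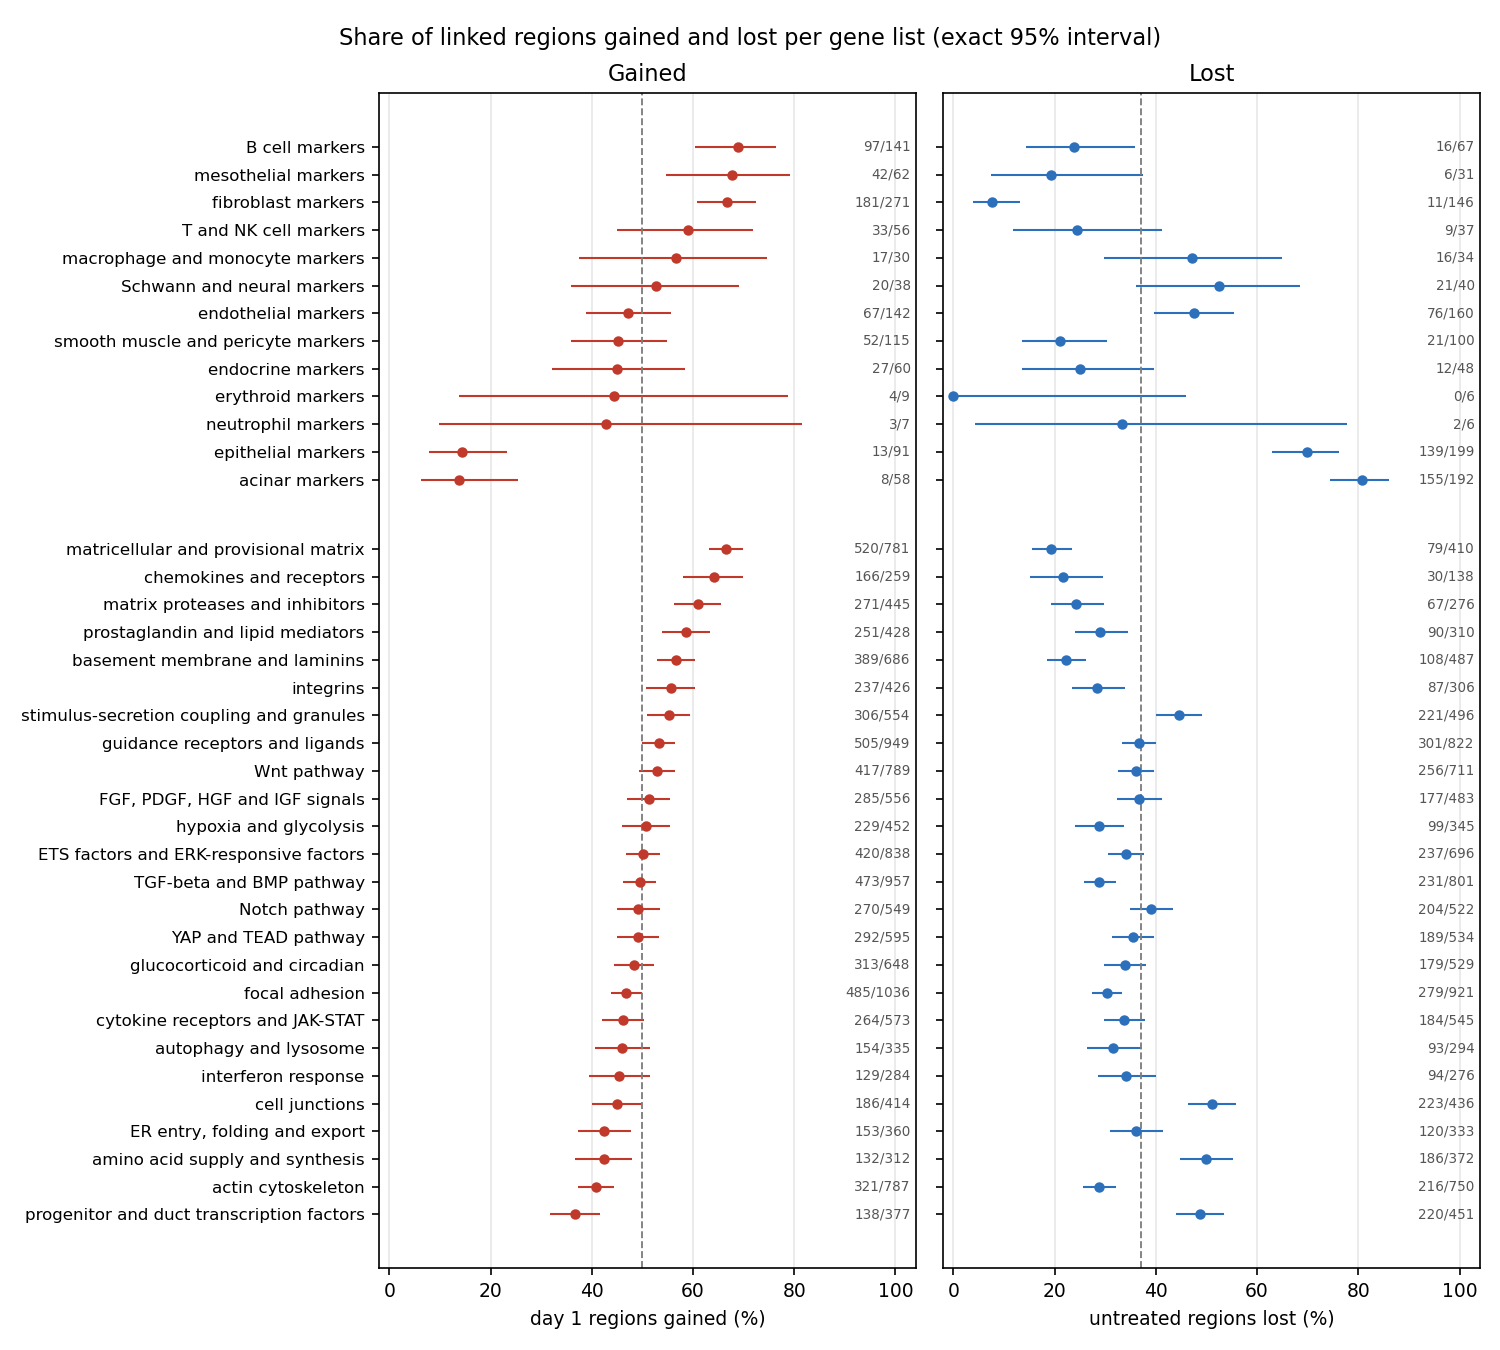
Share of day 1 regions gained and share of untreated regions lost, both in percent, for the 25 gene lists and the marker lists, with exact binomial 95% intervals and with dashed lines at the share over all linked regions (49.9% and 37.1%). Matricellular genes have the highest gained share of the 25 lists, 66.6%, and acinar markers have a lost share of 80.7%.

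The largest gained share of the 25 lists was that of a matrix list. Matricellular and provisional matrix genes, which form the temporary scaffold of a wound, gained 520 of 781 day 1 regions, or 66.6% (63.2 to 69.9), and lost 79 of 410 untreated regions, or 19.3%. Gains exceeded losses at 27 of the 32 genes, and under the floor the totals were 263 gained and 103 lost. Beside Tnc, Fbn1 and Cd44, Thbs2, an anti-angiogenic thrombospondin, gained 29 of 44. Fbln5, an elastic fibre protein, had the most losses, 27 of 38, followed by Eln and Fbln2 with 9 each. This list overlaps in kind with the genes that fibroblasts express, whose marker regions went from 146 to 271.

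Basement membrane genes gained 389 of 686 regions and lost 108 of 487, or 203 gained and 141 lost under the floor. Col4a1 gained 40 of 76, Col4a2 37 of 69, Lama2 39 of 44 and Lamc1 37 of 57, genes of collagen IV and of laminin chains. On the losing side were Lama5, the laminin chain of mature epithelial basement membranes, with 19 of 33, the perlecan gene Hspg2 with 13 of 45, and Col18a1 and Lamc3 with 11 each. Laminin chains therefore split between gain and loss.

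Matrix proteases and their inhibitors gained 271 of 445 regions and lost 67 of 276, with more gains than losses at 25 of 32 genes and with 153 and 80 under the floor. Adam12, a membrane protease of mesenchyme, gained 46 of 66, Adamts12 42 of 51, Plau, the urokinase gene, 20 of 29 and Adamts9 18 of 37. Adamts9 also lost 21 of 38, and Mmp15 lost 12 of 18. Integrins, the receptors for these matrices, gained 237 of 426 and lost 87 of 306, or 128 and 108 under the floor. Itga11 gained 28 of 38, Itga9 24 of 46 and Itgb3 24 of 29, while Itga6, a laminin receptor subunit of epithelia, lost 17 of 30 and Itgb6 9 of 25.

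The cell's attachment and contractile machinery came next. Focal adhesion genes gained 485 of 1036 regions, or 46.8%, and lost 30.3%, with gains ahead at 31 of 40 genes. Tln2, a talin, and Tns3, a tensin, gained 37 each, and Tns1 gained 31 of 98 while losing 40 of 133. Actin cytoskeleton genes gained 321 of 787, or 40.8%, and lost 28.8%, led by Cald1 with 32 of 45 and Svil with 24 of 58 gained, and by Myh9 with 22 of 67 and Capzb with 20 of 54 lost. Both lists turned to more lost than gained regions under the common enrichment floor.

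Cell junction genes, which hold epithelial sheets together, lost more than they gained. They lost 223 of 436 untreated regions and gained 186 of 414, or 260 and 86 under the floor. Cdh1 lost 30 of 41, Tjp1, which encodes ZO-1, 17 of 28, and Cldn10 16 of 24. Nectin1 gained 27 of 40 and Cdh13 17 of 25. Losses exceeded gains at 21 of 41 genes and gains exceeded losses at 18.

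Progenitor and duct transcription factor genes had the lowest gained share of the 25 lists, 138 of 377 or 36.6% (31.7 to 41.7), and lost 220 of 451, or 48.8%. Gata4 lost 35 of 44, Tcf7l2, a Wnt effector, 28 of 78, Foxa2, a forkhead factor of endoderm, 19 of 26 and Elf3, an epithelial ETS factor, 15 of 19. Glis3 went against the list with 46 of 62 gained, and Tcf7l2 also gained 30 of 73. Losses led at 17 of the 26 genes and gains at 6, and under the floor the totals were 77 gained and 258 lost.

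Secretion and its supply were mixed. The genes of stimulus-secretion coupling, through which cholecystokinin receptors raise calcium and release granules, gained 306 of 554 regions and lost 221 of 496, but the gains were concentrated. Calcium release channel genes Itpr1 and Itpr2 gained 39 each and phospholipase genes Plcb4 and Plcb1 37 and 29. Under the floor the list had 157 gained and 256 lost regions. Gains led at 13 of the 32 genes and losses at 13, with 21 of 21 lost at Gp2 and 22 of 65 at Itpr1. The cholecystokinin receptor gene Cckar, chosen after its values were seen, had 17 regions untreated and 7 at day 1, with 11 lost and 1 gained.

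Endoplasmic reticulum entry, folding and export genes gained 153 of 360 and lost 120 of 333, led by Creb3l2, a membrane-bound factor for secretory capacity, with 30 gained and by Mcfd2, a cargo receptor subunit, with 15 of 24 lost, and it too turned under the floor, to 81 and 146. Amino acid supply genes lost 186 of 372 and gained 132 of 312, or 209 and 82 under the floor, and losses led at 24 of 35 genes. Slc6a6, the taurine transporter gene, lost 28 of 45, Slc7a8 20 of 36, Slc38a3 14 of 19 and Slc7a5 12 of 22. Bcat1, a branched-chain aminotransferase, gained 16 of 18 and Dpysl2 20 of 33.

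Chemokines and their receptors gained 166 of 259 regions, or 64.1% (57.9 to 69.9), and lost 30 of 138, with gains ahead at 25 of the 28 genes that had a region. Ackr3, a scavenging receptor, gained 22 of 35, Ccl2, which draws monocytes, 12 of 20, and the neutrophil attractants Cxcl1 and Cxcl5 11 each of 15 and 14. Cxcl17, a mucosal chemokine, lost 10 of 15, and Ccl28, another, 4 of 6. Under the floor the list had 95 gained and 40 lost regions. Beside it, macrophage markers had 30 day 1 regions, neutrophil markers 7 and T and NK cell markers 56, and their part in it was not tested.

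Prostaglandin and lipid mediator genes gained 251 of 428 regions and lost 90 of 310, or 146 and 104 under the floor. Ptgs2, which encodes the inducible cyclooxygenase, gained 20 of 24, its substrate-releasing phospholipase Pla2g4a 24 of 30, the prostaglandin transporter gene Slco2a1 20 of 36, and the lysophosphatidic acid receptor gene Lpar1 43 of 58. Ptger3 and Tbxas1 lost 11 each. Gains led at 22 of the 34 genes and losses at 7.

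Cytokine receptor and JAK-STAT genes gained 264 of 573, or 46.1%, with Jak1 at 38 of 65, Il1r1 at 19 of 37, Osmr at 15 of 25 and Lif at 14 of 28. Lifr, the receptor for LIF, lost 35 of 50, so gains at the ligand gene stood beside losses at its receptor gene, and Il6ra lost 11 of 27. Interferon response genes gained 129 of 284, or 45.4%, led by Irf2 with 34 of 51 and the RNA sensor gene Ifih1 with 11 of 15, and Ifnlr1 lost 14 of 21. Under the floor both lists had more lost than gained regions.

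TGF-beta and BMP genes gained 473 of 957 regions, or 49.4%, and lost 231 of 801, or 28.8% (25.7 to 32.1), with gains of 66 of 91 at Ltbp1, which stores latent TGF-beta in matrix, 53 of 93 at the coreceptor gene Tgfbr3, 27 of 38 at Tgfb2 and 25 of 40 at Tgfbr2. Smad3 lost 30 of 90, and Bmp7 and Bmpr1b lost 23 each of 37 and 29. Wnt genes gained 52.9%, led by the WNT5A receptors Ror1 (57 of 90) and Ror2 (39 of 73), and lost 36.0%, with Lgr4 at 20 of 33 and Rnf43, a brake on Wnt receptors, at 18 of 22.

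Notch genes gained 49.2% and lost 39.1%, with 58 of 81 gained at the coactivator gene Maml2, 45 of 65 at Notch2 and 21 of 45 lost at Notch1. YAP and TEAD genes gained 49.1%, led by Frmd6 with 37 of 58 and Wwc2 with 26 of 40, while Tead1 lost 34 of 77 and gained 20 of 61 and Wwc1 lost 30 of 40. The FGF, PDGF, HGF and IGF list gained 51.3%, with 35 at Igf1r, 23 of 29 at Nrg1, a ligand of ERBB receptors, and 22 of 43 at Fgfr1. Vegfa lost 33 of 44, Fgfr3 15 of 21 and Met, the HGF receptor gene, 13 of 25. Guidance genes gained 505 of 949, of which Slit3 alone held 133, its receptor gene Robo1 39 of 48 and Efna5 23 of 30, and lost 29 of 57 at Ntn1, 25 of 44 at Unc5b and 19 of 32 at Nrp1. All 6 pathways turned to more lost than gained regions under the floor.

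Transcription and metabolic responses filled the remaining lists. ETS and ERK-responsive factor genes gained 50.1%, with Bach2 at 47 of 77, the mesenchymal regulators Zeb2 and Zeb1 at 43 of 65 and 40 of 52, and Ets1 at 37 of 63. Etv6 lost 25 of 67 and the endothelial factor gene Erg 21 of 28, while Erg also gained 14 of 21. Hypoxia and glycolysis genes gained 50.7%, with Hk2, a hexokinase, at 47 of 63, Ndrg1 at 32 of 56 and Epas1 at 20 of 40, and lost 28.7%, with Slc2a1 at 12 of 29, Hif1a at 11 of 22 and Gpi1 at 8 of 9. Glucocorticoid and circadian genes gained 48.3%, led by Rora with 82 of 125, and Nr3c2, the mineralocorticoid receptor gene, lost 20 of 24. Autophagy and lysosome genes gained 46.0%, with 25 of 41 at Atg7 and 20 of 33 at Mitf. All 4 lists again turned under the floor.

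Families of genes that share the letters of their symbols gave a view that no list fixed. In 194 families with at least 10 genes and 100 regions the median gained share was 48.5% and the median lost share 38.1%. The highest gained shares were those of Serpina (48 of 68, 70.6%), Tnfsf (82 of 117, 70.1%), Ccl (77 of 111, 69.4%), Olfr (105 of 156, 67.3%) and Rgs (217 of 334, 64.97%). Under the floor these 5 families had 32, 54, 51, 66 and 120 gained regions and 22, 32, 14, 42 and 79 lost ones. In the TNF ligand family Tnfsf15 gained 20 regions, Tnfsf4, the OX40 ligand gene, 17 and Tnfsf11 14, while Tnfsf10, which encodes TRAIL, lost 10 and gained 2. The olfactory receptor genes are not known for a role in pancreas.

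Collagen genes combined a high gained share with a low lost one. They gained 641 of 1013 regions, or 63.3%, and lost 121 of 636, or 19.03%, and under the floor they had 312 gained and 146 lost. Col5a1 went from 35 regions to 93 with 67 gained and 2 lost, or 21 and 4 under the floor, Col6a3 from 27 to 62 with 46 and 1, or 19 and 1, Col14a1 from 15 to 39 and Col15a1 from 43 to 60. Col16a1 was an exception with 20 regions untreated and 8 at day 1. Low lost shares were also found in Hoxb (15.4%), Hoxa (15.9%), Serpinb (8 of 42) and Pcdh (19.8%).

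The lowest gained shares were those of Trmt (16.7%), Srsf (23.7%), Krt (23.9%), Mroh (25.0%) and Rpl (29.7%). Srsf genes encode splicing factors, Rpl genes ribosomal proteins and Krt genes keratins of the epithelial cytoskeleton. Krt18, a simple epithelial keratin, went from 15 regions to 8 and Krt78 from 22 to 13, and Srsf5 from 15 to 6. The highest lost shares were those of Mroh (61.5%), Tmprss (59.1%), Cdh (57.3%), Kcnj (56.6%) and Mgat (55.8%). Tmprss2, a transmembrane serine protease of epithelia, lost 23 of 35 regions and Tmprss3 9 of 12. The cadherin family also gained 126 of 202 regions, or 62.4%, and under the floor had 68 gained and 130 lost. Its most frequent losses were 30 at Cdh1, 22 at Cdh4 and 14 at Cdh23, and its most frequent gains 17 each at Cdh4 and Cdh13 and 15 each at Cdh17 and Cdh22.

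Few promoters were gained or lost. Among 17273 genes with a promoter in the RefSeq table, taken as 250 bases before to 50 after the start, 10681 had a peak in both lists. The untreated list opened 11149 and the day 1 list 11192. A promoter peak was lost at 419 genes, 3.76% of those open before, and gained at 379, 3.39% of those open at day 1. A further 181 had a peak in both lists that missed the promoter in one of them and were counted as neither gained nor lost. Promoters that were open in both lists were seen at day 7 in 99.5% and at day 28 in 98.6% of cases.

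The strongest lost promoters by untreated fold were Reg1 with 48.4, Cel with 42.7, Klk1 with 38.6, Hsd17b13 with 37.1, Cela2a with 35.6 and Reg3d with 33.9. At day 28 the folds of that list were 52.8 at Reg1, 42.9 at Cel, 64.1 at Cela2a, 32.1 at Gp2 and 28.9 at Nr5a2, the orphan nuclear receptor that sustains acinar identity. Of the 14 acinar markers 6 had lost the promoter peak, Cpa1, Cpb1, Cel, Cela2a, Cela3b and Pnlip, and 6 had kept one, among them the factor genes Ptf1a, Rbpjl and Bhlha15. All 6 lost ones had a promoter peak again at day 28.

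Other lost promoters included some of ducts and gut-like epithelium. Among these were Cftr, the chloride channel of duct cells, Cdx2 and Vil1 of intestine, and Spdef and Agr2 of goblet cells. Muc3, Muc6, Krt20, and the bile acid and xenobiotic receptors Nr1h4 and Nr1i2 were others. Of the 13 epithelial markers, however, 7 had a promoter peak in both lists and 0 had lost it. Of the 26 progenitor and duct factor genes 15 had one in both lists and 1 had lost it. Some genes of both lists had no promoter in the RefSeq table. The endothelial genes Erg and Tie1 were also among the genes with a lost promoter. The endothelial marker list as a whole lost 76 of 160 untreated regions and gained 67 of 142 day 1 regions. Losses led at 6 of its 11 genes and gains at 3, among them Kdr with 11 gained and 1 lost. The genes of lost promoters named in this paragraph were picked from the list of changed promoters after their values were seen. So were the gained ones in the next paragraph that follow the strongest.

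Gained promoters were led by day 1 fold by Fcrlb with 36.1, the lectin gene Lgals2 with 32.3, the serotonin receptor gene Htr2b with 31.5, Olr1 with 29.8, Runx2 with 29.5, Sbsn with 27.9 and Fgf23 with 25.7. Olr1 and Runx2, printed above, had folds of 13.7 and 11.8 at day 7, and Runx2 9.08 at day 28. Matrix protease promoters followed, with folds of 8.19 at Mmp3, 4.73 at Mmp8 and 2.84 at Mmp10. Inflammatory genes with a gained promoter included Il1rl1, which encodes the IL-33 receptor, Nlrp3, Trem2, Sele, Il19 and Ccl8, and matrix genes Ogn, Aspn, Spp1 and Grem1. Promoters of neural and early developmental factors, Otx2, En1, Sox1, Zic1, Gsx2, Barhl2 and Tlx3, also had a peak at day 1 alone of the 2 lists. Of the promoters named in this paragraph, Mmp10, Nlrp3, Il19, Aspn, Zic1, Gsx2 and Barhl2 had a day 1 fold below the 4.27 of the common enrichment floor.

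**Figure D4:**
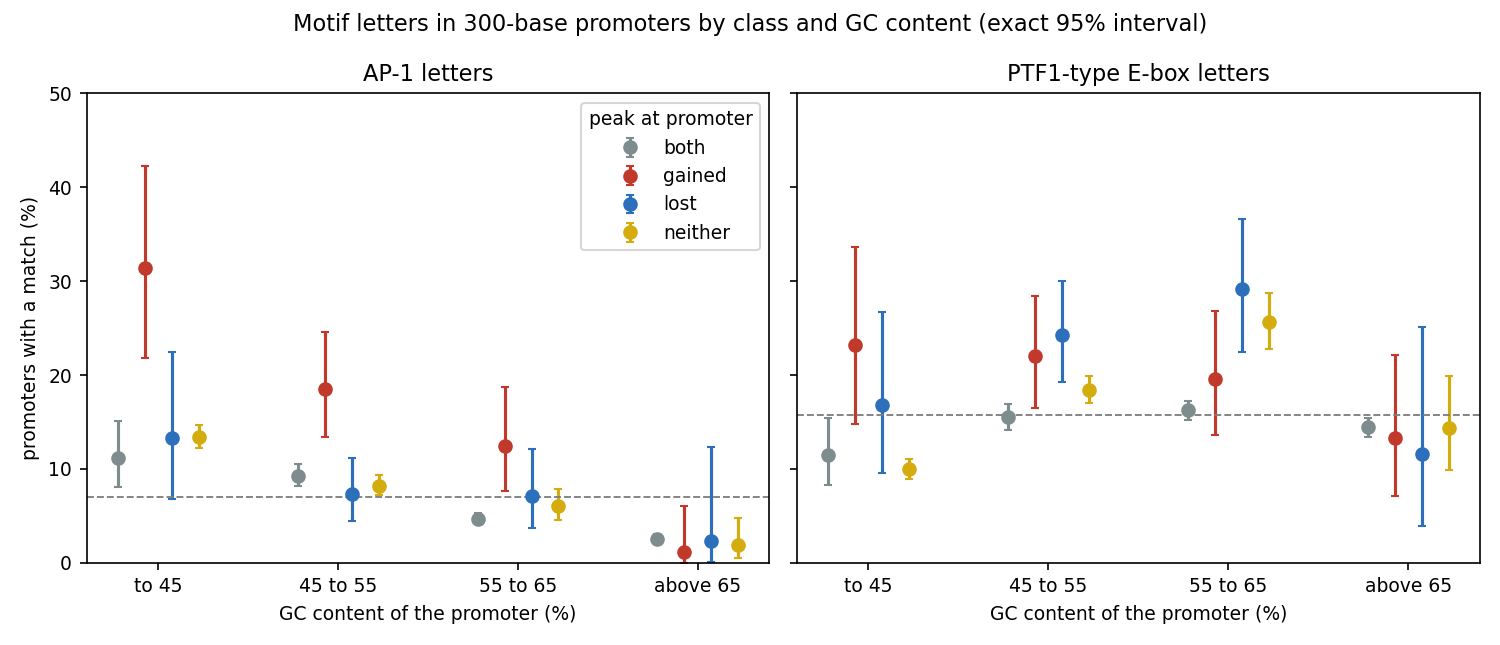
Percent of promoters with the AP-1 letters (left) and the CAGCTG letters (right) by GC content of the promoter, for promoters open in both lists, gained, lost and open in neither, with exact binomial 95% intervals and a dashed line at the share of all promoters. Up to 45% GC the AP-1 letters are in 31.4% of gained and 13.4% of closed promoters, and above 65% GC they are in 1.11% of gained ones.

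The letters of the promoters differed between these groups. TGANTCA was found in 84 of 529 gained promoters, 15.9% (12.9 to 19.3), 43 of 553 lost ones, 7.78%, 5.00% of those open in both lists and 10.1% of those open in neither. Base composition differed as well, with a median GC content of 54.0% in gained, 53.3% in lost, 62.0% in always open and 46.3% in never open promoters. Within the band of up to 45% GC the AP-1 letters were in 27 of 86 gained promoters, 31.4%, against 13.4% of those open in neither. Between 45 and 55% GC they were in 37 of 200, or 18.5%, against 8.22%, and between 55 and 65% in 19 of 153, or 12.4%, against 6.10%. Above 65% GC they were in 1 of 90. The share in gained promoters was thus above that in closed ones of like composition in 3 of the 4 bands.

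CAGCTG was found in 131 of 553 lost promoters, 23.7% (20.2 to 27.5), in 20.04% of gained ones, in 15.3% of those open in both lists and in 15.4% of those open in neither. Within the 4 GC bands its share of lost promoters was 16.9%, 24.3%, 29.2% and 11.6%, against 9.97%, 18.4%, 25.7% and 14.4% of those open in neither, so the order turned above 65% GC. In gained promoters the shares were 23.3%, 22.0%, 19.6% and 13.3%, above lost ones in the lowest and the highest band. The letters thus did not set lost promoters apart from gained ones in every band. In the 250 bases before the start alone the share of lost promoters was 17.0%, against 12.2% of all. The ETS letters CCGGAAG, common in housekeeping promoters, were in 17.5% of promoters open in both lists, 3.78% of gained and 3.44% of lost ones, and 11.7% of all. The CRE letters TGACGT were in 11.7% of promoters open in both lists, 5.10% of gained and 4.52% of lost ones, and 8.58% of all. The RUNX letters TGTGGTT were in 7.56% of gained and 5.79% of lost promoters, 7.35% of those open in neither and 4.74% of all. Constant promoters thus differed from changed ones in ETS and CRE letters.

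Hairpins of microRNAs, short RNAs that repress messages paired to their seed, were also read. Of 1005 hairpins 147 had a peak in both lists, 44 a gained peak only and 27 a lost peak only. At a further 33 a peak present in both lists met the hairpin in only 1 of them, and these were counted as neither gained nor lost. The other 754 had no peak in the untreated or the day 1 list. Of the 44 gained, 11 were seen at day 7 and 6 at day 28; of the 27 lost, 8 and 13. The mature forms of 3 are given because of their known roles, with the seed, bases 2 to 8, in capitals, from RefSeq on GRCm38.p6. They were chosen after the values were seen, and their seeds all differ.

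mmu-miR-155-5p: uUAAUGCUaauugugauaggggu
mmu-miR-29a-3p: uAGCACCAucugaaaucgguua
mmu-miR-200a-3p: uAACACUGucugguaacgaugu

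Mir155, whose product acts in activated immune and inflammatory cells, lies at chr16:84714140-84714204 and had a day 1 peak with a fold of 10.4 and no peak untreated or at days 7 and 28. Mir29a, whose product represses collagen messages, lies at chr6:31062660-31062747 and had a day 1 peak with a fold of 4.73. Mir200a, whose product represses the mesenchymal factors Zeb1 and Zeb2, lies at chr4:156054896-156054985 and had folds of 7.58 untreated, 4.03 at day 7 and 6.24 at day 28, with no day 1 peak. Beside that loss Zeb1 and Zeb2 had gained 40 and 43 regions, and whether these are related was not tested. The related hairpins Mir200b, Mir200c, Mir141 and Mir429 were not among the 27 called lost.

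**Figure D5:**
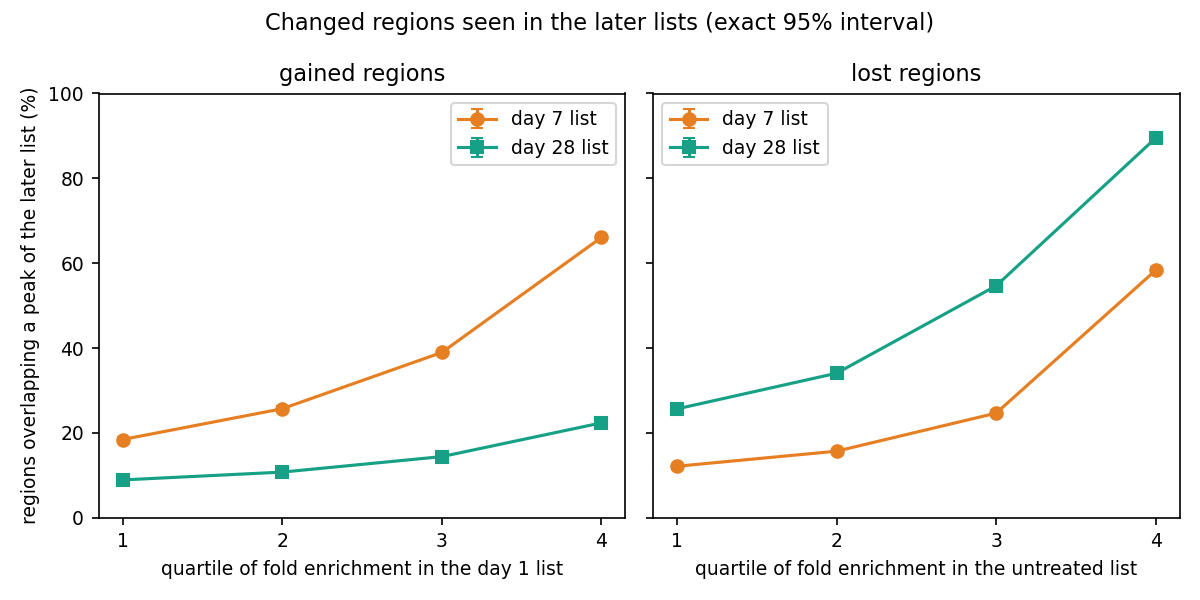
Percent of gained and of lost regions that overlap a peak at day 7 and at day 28, by quartile of the fold in their own list, with exact binomial 95% intervals. The share rises with fold in each panel, from 18.5% to 66.1% for gained regions at day 7 and from 25.7% to 89.5% for lost regions at day 28.

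Lists that the comparison had not used showed how long the changes lasted. Of gained regions 37.3% overlapped a day 7 peak and 14.1% a day 28 peak, and of lost regions 27.7% were open again at day 7 and 51% at day 28. Neither later list held 59.7% of gained and 44.6% of lost regions. Shared regions of the day 1 list were seen in 92.3% and 88.3% of cases at days 7 and 28. At day 7 a larger share of gained than of lost regions was seen, and at day 28 the order was the reverse. All 4 shares were below those of shared regions.

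The shares were larger for stronger regions. In quartiles of fold, gained regions were seen at day 7 in 18.5%, 25.7%, 39.0% and 66.1% of cases and at day 28 in 8.93%, 10.8%, 14.4% and 22.4%. Lost regions were seen at day 7 in 12.2%, 15.7%, 24.7% and 58.4% and at day 28 in 25.7%, 34.1%, 54.7% and 89.5%. The libraries of days 7 and 28 had backgrounds of 2.72 and 2.52, near the lower limit for weak regions, and the part of that lower depth in the shares was not tested. Promoters followed the same order, with 56.2% of gained ones seen at day 7 and 21.9% (17.8 to 26.4) at day 28, and 47.0% and 57.5% (52.6 to 62.3) of lost ones.

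The lists and markers differed in their return. Of the 155 lost acinar marker regions 142 were seen at day 28, and of the 139 lost epithelial ones 94. Of the 181 gained fibroblast marker regions 78 were seen at day 7 and 30 at day 28. Matricellular genes kept 183 of 520 gained regions at day 7 and 67 at day 28, chemokines 66 and 25 of 166, and basement membrane genes 131 and 32 of 389. Chemokine genes had 138 regions untreated, 259 at day 1, 229 at day 7 and 142 at day 28. Chemokine genes were thus within 4 regions of their untreated total at day 28, and most acinar marker regions had come back.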

How the data were processed

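ATAC-seq peak lists of untreated epithelium and of days 1, 7 and 28 after caerulein were used, 1 library per group, grouped by title. Per the submitters' processing notes the tools were MACS2 2.1.0.20150731 and Bowtie2 2.2.6 with cutadapt, deepTools and SAMtools, and the build was GRCm38 (mm10). The role of each tool, its options, read filters and any shift of cut sites are not given in the sources used. In the deposited narrowPeak lists the fold enrichment is the authors' ratio of pileup to background, the −log10 p and −log10 q are the authors' values, and the deposited score equals 10 times the −log10 q. The last deposited column used is the offset of the summit.

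From these, gained and lost regions were called by overlap of 1 bp on chromosomes 1 to 19 and X and checked with bedtools 2.31.1. Each summit was assigned to its nearest protein-coding gene, up to 50 kb away, in the RefSeq table of GRCm38.p6, which gives no exons, so exons and introns were not separated. Of 882 list entries 880 matched that table, and all 138 marker entries did. Families are genes that share at least 3 letters before the first digit of the symbol. Promoters and microRNAs came from RefSeq tables, which held a promoter for 79.9% of protein-coding genes. No genome sequence was used, so motifs and GC content of regions outside promoters were not computed. Read totals are not given in the sources used, and background pileups were recovered from the authors' fold and −log10 p, within 0.05 of whole pileups. Intervals of shares are exact (Clopper-Pearson, 95%) and cover counting error alone.

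Named genes were the 20 with most gained and the 20 with most lost regions, and the 10 leading genes by each of the other orders given in the report. The 20 strongest regions of each kind and the 10 strongest at gene ends were also taken. Per list the 4 members with most gained and the 4 with most lost regions could be named, and per direction the 5 families at each end; further names were chosen after values were seen, and a few named by these rules are not reported here. The members and lists were chosen with earlier results of these data known. Alternatives were a common enrichment floor, a −log10 q of 5, links within 10 or 100 kb or to the nearest gene end, crediting every gene that holds a summit, other overlaps, and, chosen after seeing the data, other promoter windows and run gaps. The overlap and linking steps were tested on simulated data. Python 3.11.15, numpy 2.4.6, pandas 2.3.3 and scipy 1.17.1 were used.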

Additional observations from a re-analysis of the deposited data

Results flagged for a closer look

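Chromosome Y was outside the regions compared. The day 1 list held 11 peaks on it and the untreated list 9, with 7 at day 7 and 6 at day 28. It is given because the day 1 number was above the untreated one in data that no comparison used.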

How the results depend on the processing

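No paired analysis was possible because each group has 1 library, and for the same reason no replicate could be left out. Under the common enrichment floor gained regions fell from 86230 to 46643, and the balance of gained minus lost regions turned from 33704 to -16446. Genes with more gained than lost regions numbered 4940 there, genes with more lost 8519, and genes with at least 5 untreated regions, all lost, 145. Of 38 lists 18 kept their direction under it. The balance turned at secretion coupling (-99), ER (-65), actin (-140), focal adhesion (-85), YAP (-81), TGF-beta (-44), Wnt (-94), Notch (-99), FGF (-81), guidance (-125), interferon (-59), cytokine receptor (-89), glucocorticoid (-67), hypoxia (-19), autophagy (-48) and ETS (-56) genes. It also turned at smooth muscle (-2), macrophage (-11), neutrophil (-3) and endocrine (-12) markers. By its construction the floor removes day 1 regions only. Further turns were secretion coupling with links to the nearest gene end (-14), endothelial (4) and neutrophil (-9) markers with links within 100 kb, and Schwann markers at a −log10 q of 5 (2), for which the cause was not tested.

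At a −log10 q of 5, 8 lists had a lost share above that of all regions, and gained regions were seen at days 7 and 28 in 40.5% and 14.97% of cases and lost ones in 32.4% and 58.7%. Gene end windows of 250 bp and 2 kb, by their size, gave 960 and 8770 gained and 938 and 7284 lost regions. The CAGCTG share of lost promoters was 17.0% in the 250 bases before the start, a shorter window. Of 79 counts at named genes, 34 moved by over 1.5 times under the floor, 43 with the nearest gene end, 4 with links within 10 kb, 3 at a −log10 q of 5, 1 with links within 100 kb and 0 when every gene holding a summit was credited. Depth limits weak regions: the lowest fold in the lists was 2.47 untreated and 2.36 at day 1.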

Other observations

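Gene ends gave a further group of genes. Regions within 1 kb of an annotated gene start or end were gained at 3490 genes and lost at 2854. Of the day 1 regions at gene ends 4311 of 19847, or 21.7%, were gained. Of the untreated ones 3664 of 20748, or 17.7%, were lost. Both shares were below the 52.4% and 37.4% over all regions. The strongest gained ones lay at Pla2g2d, a secreted phospholipase (fold 53.3), Prss45 (47.4), the BMP-family gene Gdf10 (46.0) and Dglucy (44.4), followed by Gm5544, Wdfy1, Defb47, Pfkm, Sohlh1 and Plscr1. The day 7 list held all 10 and the day 28 list 4. Among lost gene ends the strongest lay at Fam25c (53.1), Cdcp3 (51.6), the caspase gene Casp9 (50.7), Reg1 (48.4) and Cel (42.7), followed by Slc25a10, Fkbp6, Umod, Rbbp8 and Fbxo47, and all 10 were seen at both later days.

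Chromosome X stood apart from the autosomes. It had 1710 regions untreated, 2901 at day 1, 2315 at day 7 and 2064 at day 28, a ratio of day 1 to untreated of 1.70, against 1.04 to 1.33 on the 19 autosomes and 1.17 over all. Of its day 1 regions 60.5% were gained, against 46.2% to 56.9% on the autosomes, and 27.3% of its untreated regions were lost, against 35.0% to 40.3%. The sources used here do not give the sex of the mice.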
